A study of Mus musculus with 16 samples.

Results

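The collagens of interstitium and basement membrane described here are Col3a1, Col5a1, Col5a2, Col4a1, Col4a2, Col8a1, Col6a1, Col6a2, Col6a3 and Col7a1. They were taken from a list of 10 genes, and every probe set whose platform annotation gives 1 of these symbols was included. All 10 genes were on the chip, with 14 of the 12422 probe sets tested. Col3a1 had 3 probe sets, Col5a1 and Col6a1 had 2 each, and the other 7 genes had 1 each. A probe set is a group of short probes that reads 1 transcript. Probe sets differ in brightness, so levels were compared between chips and not between genes.

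RNA came from whole inner ears of newborn (P0) COUP-TFI-/- mice and wild-type mice of strain 129SvEv. COUP-TFI is the protein of Nr2f1, a nuclear receptor without a known natural ligand that binds repeated DNA half-sites, and the COUP-TFI-/- genotype is carried by every cell of the animal. Each of 2 hybridization sets, A and B, was run at a different point in time with 1 RNA pool per genotype, and each pool was hybridized to duplicate Affymetrix MG-U74Av2 chips. This gave 4 COUP-TFI-/- chips and 4 wild-type chips, but only 2 pools per genotype. Each pool mixed ears of several animals, so differences between single animals were not measured. The deposited values of each chip come in 2 normalizations, GCRMA (log2 scale) and dChip (linear scale).

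Collagen chains fold together into helical trimers. Types III and V join type I in the fibrils of connective tissue, where type V helps to start the fibril and limits its width. Type IV builds the network of basement membranes, type VI forms beaded filaments between fibrils and cells, type VII forms the fibrils that anchor epithelia to the tissue beneath, and type VIII is a short-chain collagen of vessel walls and specialised basement membranes. In the inner ear such matrix lies in the spiral ligament and limbus, the basilar membrane and around the vessels of the stria vascularis.

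COUP-TF proteins are known to bind direct repeats of half-sites close to AGGTCA or GGGTCA, and human COL7A1 is among the genes with a published response element. That element and the sequence before the start sites of the mouse genes Col7a1 and Col6a2 are shown because these are the members whose windows hold a half-site. In the human element the capitals mark both half-sites, which lie 1 base apart and read on the opposite strand. In the mouse windows, taken from RefSeq (GRCm38.p6), the capitals mark exact matches to AGGTCA or GGGTCA on either strand.
Human COL7A1 response element: gcgGGACCCaTGGCCTgag
Mouse Col7a1, chr9:108953336-108953585, plus strand: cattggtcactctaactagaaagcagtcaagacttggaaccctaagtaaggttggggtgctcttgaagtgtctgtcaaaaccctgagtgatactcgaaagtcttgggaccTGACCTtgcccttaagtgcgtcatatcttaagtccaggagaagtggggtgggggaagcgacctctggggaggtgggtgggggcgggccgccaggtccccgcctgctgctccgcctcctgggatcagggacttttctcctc
Mouse Col6a2, chr10:76623405-76623654, minus strand: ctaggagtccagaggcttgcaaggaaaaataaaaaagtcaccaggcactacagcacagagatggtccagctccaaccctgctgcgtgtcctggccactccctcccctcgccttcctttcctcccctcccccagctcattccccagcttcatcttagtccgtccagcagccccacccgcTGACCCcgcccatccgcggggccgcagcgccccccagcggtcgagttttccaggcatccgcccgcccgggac
The match in the Col7a1 window is an AGGTCA that begins 140 bases before the start site, and the match in the Col6a2 window is a GGGTCA that begins 72 bases before it. Both lie on the opposite strand. RefSeq windows were at hand for 9 of the 10 genes, in 10 windows because Col6a2 has 2 start sites. Of these 10 windows, 2 held either half-site, 1 held AGGTCA and 1 held GGGTCA. Among 32851 windows of the same 250 bases over all genes, 23.8% held either half-site, 14% AGGTCA and 11.6% GGGTCA. A pair of half-sites on 1 strand with at most 13 bases between them was in 0 of the 10 windows and in 0.42% of all windows. A match is only a match of letters, and no binding was measured here.

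The targeted gene followed the labels. Nr2f1 had GCRMA values between 4.68 and 5.27 on the COUP-TFI-/- chips, against 7.74 to 8.83 on the wild-type chips. Its difference was -3.37 ± 0.11 (SE, 2 pools per genotype, limma adjusted p = 5.9e-11). The sets differed more than the genotypes. Over all probe sets the median absolute difference was 0.16 between sets and 0.06 between genotypes with GCRMA, and the median SD between duplicate chips was 0.09. Each genotype difference is therefore given within set A and within set B, as well as pooled.

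None of the 14 collagen probe sets rose or fell in COUP-TFI-/- inner ears once p-values were adjusted over the whole chip. The lowest limma adjusted p was 0.473 with GCRMA (Col8a1) and 1 with dChip after rounding. Adjusted p-values under 0.05 were reached by 0.105% of all probe sets with GCRMA and by 0.00805% with dChip. At an unadjusted p under 0.05, 2 of the 14 passed with GCRMA, where 4.58% of all probe sets did. They were Col8a1, lower in COUP-TFI-/- ears, and Col6a2, higher. With dChip 1 of the 14 passed, Col8a1, beside 2.13% of all probe sets. The pooled differences were small, between -0.39 and 0.30 with GCRMA, and 12 of the 14 were within 0.15 of 0. The duplicate chips of a pool share its RNA, so the tests rest on 2 pools per genotype.

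**Figure D1:**
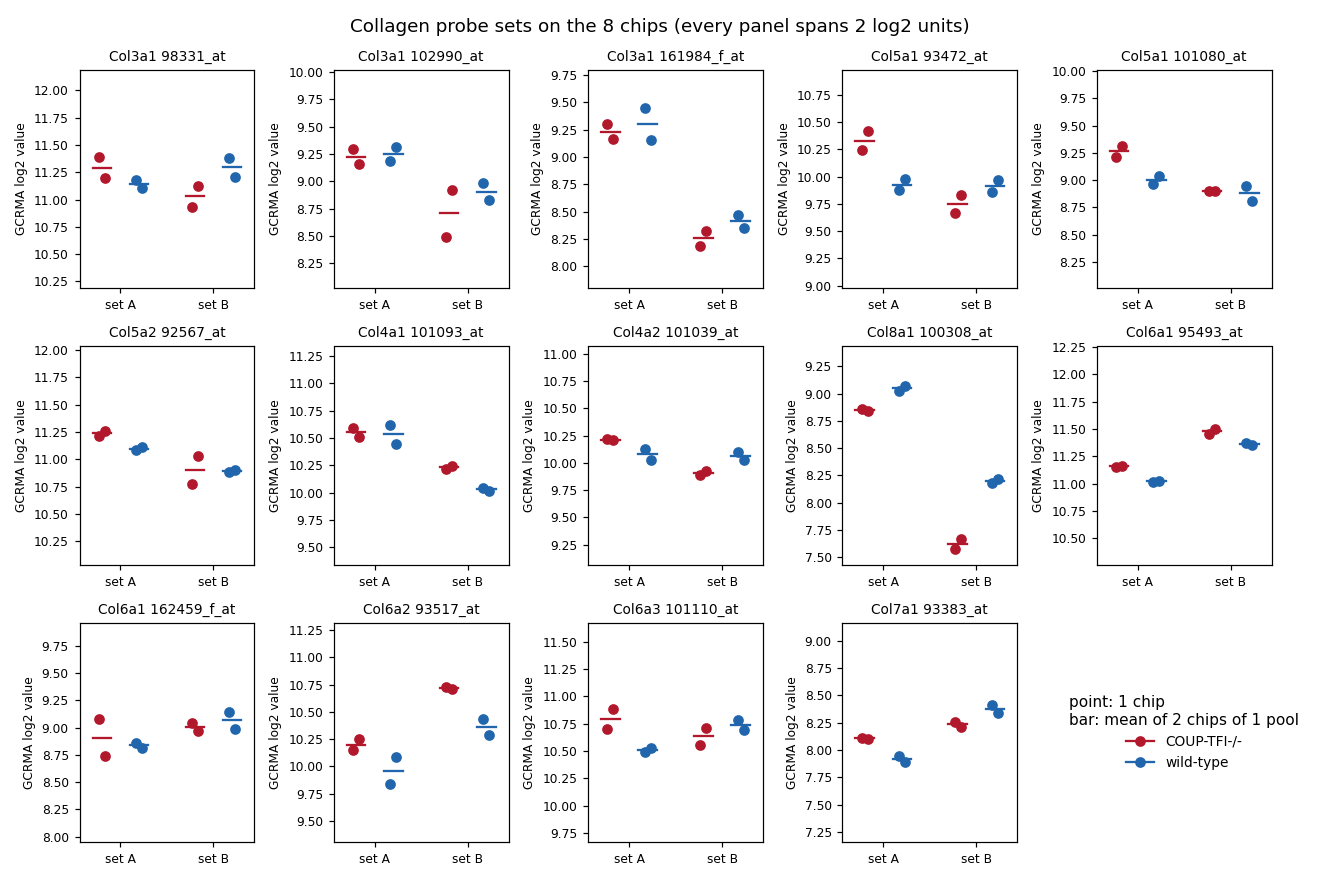
GCRMA log2 values of the 14 collagen probe sets, with set A and set B on the x axis and COUP-TFI-/- (red) left of wild-type (blue) in each set. Points are chips, bars are means of the 2 chips of a pool, and every panel spans 2 log2 units. Col8a1 is lower on the COUP-TFI-/- chips in both sets, and Col6a2 and Col6a1 (95493_at) are higher in both.

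The fibrillar chains of types III and V follow, and no difference between them was tested. Col3a1 encodes the single chain of type III collagen. Probe set 98331_at had GCRMA values of 11.39 and 11.20 on COUP-TFI-/- chips of set A, against 11.18 and 11.11 on wild-type chips. The set B values were 10.94 and 11.13 on COUP-TFI-/- chips, against 11.38 and 11.21 on wild-type chips. The genotypes were thus separate in each set but in opposite directions, with 0.15 (A) and -0.26 (B). With dChip the same probe set was higher in COUP-TFI-/- ears in both sets, by 0.12 (A) and 0.04 (B). The other Col3a1 probe sets, 102990_at and 161984_f_at, were lower in COUP-TFI-/- ears in both sets with GCRMA, by -0.02 and -0.20 for 102990_at and by -0.07 and -0.16 for 161984_f_at (set A, then set B). Pooled over the sets, the 3 probe sets of Col3a1 gave differences from -0.12 to -0.06 with GCRMA and from -0.04 to 0.08 with dChip. The sign of the Col3a1 difference therefore depended on the probe set and the normalization.

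Col5a1 encodes the main chain of type V collagen. Probe set 93472_at had 10.24 and 10.42 on COUP-TFI-/- chips of set A, against 9.87 and 9.98 on wild-type chips. On the chips of set B, the values were 9.67 and 9.83 on COUP-TFI-/- chips, against 9.86 and 9.97 on wild-type chips. The genotypes did not overlap within a set, and differed by 0.40 (A) and by -0.16 (B). This was the lowest interaction p of the members with GCRMA (A minus B 0.57, limma on 8 chips, adjusted p = 0.0772). With dChip the 2 sets gave 0.35 and -0.14 (interaction adjusted p = 0.111). The other Col5a1 probe set, 101080_at, differed by 0.26 (A) and 0.02 (B) with GCRMA, and by 0.30 and -0.03 with dChip. Both probe sets of Col5a1 were therefore higher in COUP-TFI-/- ears in set A, with values near 0 or below in set B. Col5a2 encodes a partner chain in the same trimers and neighbours Col3a1 on chromosome 1. Its differences were 0.14 (A) and 0.01 (B) with GCRMA, and 0.16 and -0.07 with dChip. Pooled, none of these 3 probe sets passed an unadjusted p of 0.05, and the largest difference was 0.14 ± 0.10 (SE) for Col5a1 101080_at.

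The basement membrane chains of type IV, Col4a1 and Col4a2, lie head to head on chromosome 8 and are the most widespread pair of their family. Col4a1 had 10.59 and 10.51 on COUP-TFI-/- chips of set A, against 10.62 and 10.44 on wild-type chips, values that overlap. For set B they were 10.22 and 10.25 on COUP-TFI-/- chips, against 10.04 and 10.02 on wild-type chips, a difference of 0.20 with no overlap. Col4a2 had 10.22 and 10.21 on COUP-TFI-/- chips of set A, against 10.13 and 10.03 on wild-type chips. Set B gave 9.89 and 9.93 on COUP-TFI-/- chips, against 10.10 and 10.03 on wild-type chips. Col4a2 was thus higher in set A by 0.13 and lower in set B by -0.15, the opposite order to Col4a1. With dChip the 2 sets gave -0.04 and 0.24 for Col4a1 and 0.09 and -0.05 for Col4a2. The pooled differences were 0.11 ± 0.10 for Col4a1 and -0.01 ± 0.10 for Col4a2 (GCRMA, SE, 2 pools per genotype). The 95% interval of the Col4a2 difference, not adjusted over the chip, runs from -0.23 to 0.21, so changes within it are not excluded. Even the larger difference of Col8a1, -0.39, did not pass an adjusted p of 0.05.

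Col8a1, a chain of the short-chain type VIII collagen, had the lowest genotype p of the members in both normalizations. With GCRMA it had 8.86 and 8.84 on COUP-TFI-/- chips of set A, against 9.03 and 9.07 on wild-type chips. Set B gave lower values, 7.57 and 7.67 on COUP-TFI-/- chips, against 8.18 and 8.22 on wild-type chips. Both COUP-TFI-/- chips were below both wild-type chips in each set, while the sets lay further apart than the genotypes. With dChip the linear values were 1016 and 929 on COUP-TFI-/- chips of set A, against 1129 and 1092 on wild-type chips. In set B they were 394 and 482 on COUP-TFI-/- chips, against 577 and 574 on wild-type chips. The pooled GCRMA difference was -0.39 ± 0.11 (SE), or 0.763 of the wild-type level, with a 95% interval of -0.62 to -0.16 and a limma adjusted p of 0.473. With dChip it was -0.30 ± 0.11, or 0.814 of the wild-type level (limma adjusted p = 1 after rounding). Within the sets the GCRMA difference was -0.20 (A) and -0.58 (B), and the dChip difference -0.19 and -0.40. With dChip the unadjusted p no longer passed 0.05 when COUP-TFI-/- chip A2, COUP-TFI-/- chip B1 or wild-type chip A1 was left out.

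The type VI chains join in 1 trimer, and no difference between them was tested. Col6a1 and Col6a2 are neighbours on chromosome 10, and Col6a3 lies on chromosome 1. Col6a2 had 10.15 and 10.25 on COUP-TFI-/- chips of set A, against 9.84 and 10.08 on wild-type chips. Higher values came from set B, 10.72 and 10.71 on COUP-TFI-/- chips, against 10.43 and 10.29 on wild-type chips. The COUP-TFI-/- chips were above the wild-type chips in each set, by 0.24 in A and 0.36 in B. The pooled difference was 0.30 ± 0.10 (SE), 1.23 times the wild-type level, with a 95% interval of 0.09 to 0.50 and a limma adjusted p of 0.705. With dChip the values of set A were 1406 and 1395 on COUP-TFI-/- chips, against 1356 and 1471 on wild-type chips, and overlapped. In set B they were 2164 and 2389 on COUP-TFI-/- chips, against 1681 and 1677 on wild-type chips. The dChip difference of Col6a2 was thus -0.01 (A) and 0.44 (B) (interaction adjusted p = 0.0902), and its pooled value was 0.21 ± 0.14. A GGGTCA half-site lies in 1 of the Col6a2 windows, and no link of that half-site with these differences was tested.

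Col6a1 gave different values with its 2 probe sets. Probe set 95493_at had 11.15 and 11.16 on COUP-TFI-/- chips of set A, against 11.02 and 11.03 on wild-type chips. The chips of set B gave 11.45 and 11.50 on COUP-TFI-/- chips, against 11.37 and 11.36 on wild-type chips. The genotypes did not overlap in either set, with differences of 0.14 and 0.11 and an SD between duplicates of 0.02. With dChip the differences were 0.10 in both sets, and the chips again did not overlap within a set. The pooled difference was 0.13 ± 0.10 with GCRMA (SE, limma adjusted p = 1 after rounding), with an error that limma shares between all probe sets. Probe set 162459_f_at, whose suffix marks probes shared within a sequence family, differed by 0.07 (A) and -0.06 (B), with an SD between duplicates of 0.13. Col6a3 encodes the long chain that completes the trimer. It was higher in COUP-TFI-/- ears of set A, by 0.29 with GCRMA and 0.24 with dChip. For set B the difference was -0.11 in both normalizations.

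Col7a1, the only chain of type VII collagen, had 8.11 and 8.10 on COUP-TFI-/- chips of set A, against 7.95 and 7.89 on wild-type chips. Set B gave 8.26 and 8.22 on COUP-TFI-/- chips, against 8.41 and 8.34 on wild-type chips. The genotypes were separate in both sets but in opposite directions, 0.19 in A and -0.14 in B (interaction 0.32, limma on 8 chips, adjusted p = 0.183). With dChip the differences were 0.08 and -0.05. Pooled, Col7a1 differed by 0.03 ± 0.10 with GCRMA (limma adjusted p = 1 after rounding) and by 0.01 ± 0.10 with dChip. The 95% interval with GCRMA was -0.20 to 0.25. The published element shown above is in the human gene, and the data do not say whether the mouse gene is bound in these ears.

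**Figure D2:**
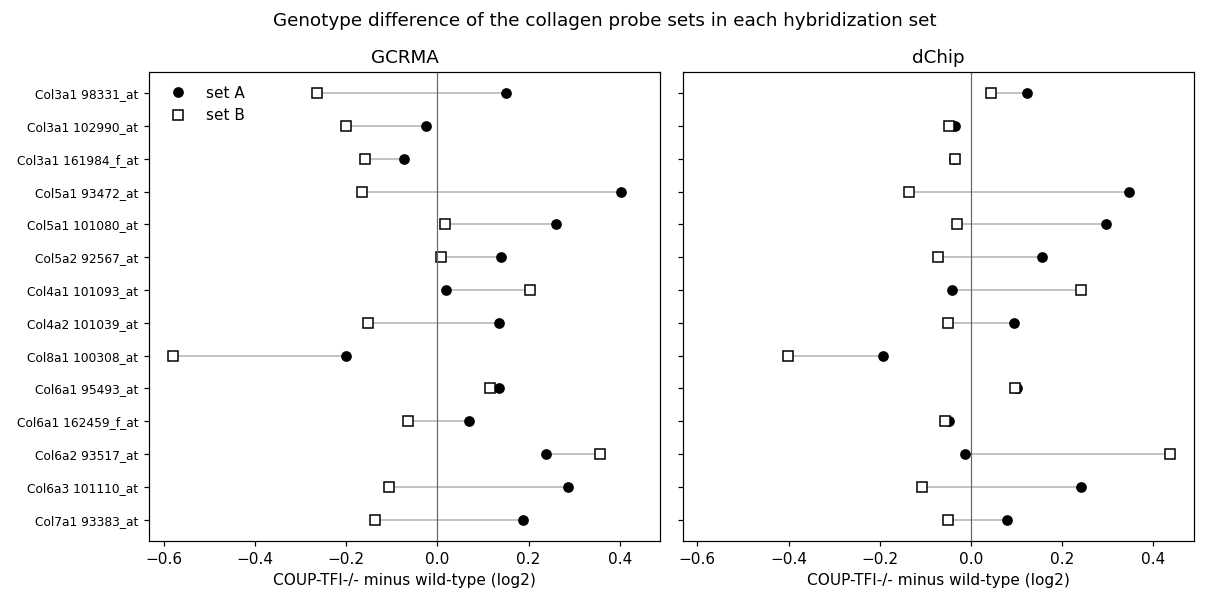
COUP-TFI-/- minus wild-type (log2, x axis) of the 14 collagen probe sets in set A (filled circles) and set B (open squares), with GCRMA on the left and dChip on the right. Points on both sides of the 0 line mark opposite signs in the 2 sets, as for Col5a1 93472_at (0.40 and -0.16 with GCRMA). Col8a1 lies left of 0 in both sets and both normalizations.

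Across the members, set A and set B gave different pictures. With GCRMA 11 of the 14 probe sets were higher in COUP-TFI-/- ears in set A and 5 of the 14 in set B, against 53.1% and 49.7% of all probe sets. With dChip 8 of 14 were higher in A and 4 of 14 in B, against 51.3% and 47.1%. The median difference was 0.14 (A) and -0.12 (B) with GCRMA, against 0.0072 and -0.0014 over all probe sets, and 0.09 and -0.05 with dChip. Pooled, it was 0.05 in either normalization, against 0.00077 (GCRMA) and -0.0089 (dChip) over all probe sets. With the GCRMA chips quantile-normalized or centred on their medians, 11 were higher in set A and 4 or 3 in set B. In 6 of the 14 probe sets the GCRMA difference was positive in A and negative in B, and in 0 it was the reverse. With dChip 8 of 14 had opposite signs. Opposite signs were common on the chip, at 54.4% with GCRMA and 56.3% with dChip, so these shares are not particular to the collagens. In 3 of the 14, Col8a1, Col6a2 and Col6a1 95493_at, all chips of 1 genotype were on the same side of the other genotype in both sets with GCRMA, beside 8.26% of all probe sets. With dChip it was 2 of the 14, Col8a1 and Col6a1 95493_at, beside 8.15%.

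For its first hit lists the study asked for a genotype p under 0.01, together with no interaction at 0.01 between genotype and time point, over the 8 chips. With limma in this design, 1 of the 14 probe sets met the thresholds with GCRMA, Col6a2, and 1 with dChip, Col8a1. Of all probe sets 3.59% met them with GCRMA and 2.95% with dChip. Col8a1 missed them with GCRMA because its interaction p was under 0.01, and Col6a2 missed them with dChip for the same reason. No collagen probe set met them in both normalizations. With the methods' 2-way analysis of variance on the same chips, Col6a1 95493_at alone met them with GCRMA and none of the 14 with dChip, beside 2.06% and 2.00% of all probe sets. An interaction p under 0.01 was reached by 2 of the 14 with GCRMA (Col8a1 and Col5a1 93472_at) and by 2 with dChip (Col6a2 and Col5a1 93472_at), beside 6.01% and 8.37% of all probe sets. These fits count duplicate chips as replicates, and the spread behind them is that between hybridizations of 1 pool. Adjusted over the chip, 0 of the 14 interactions passed 0.05 in either normalization with limma, and the lowest adjusted p was 0.0772. For its final list the study took a genotype p under 0.01 in 1 normalization and under 0.05 in the other, again with no interaction. That final rule was not applied here. The study's tables of hits name Col6a1 and Col7a1, both lower in wild-type ears. Its Col7a1 entry is described there as the alpha 1 chain of type 1 procollagen, so the gene it stands for is unclear. Pooled over the sets, Col7a1 differed here by 0.03 with GCRMA and by 0.01 with dChip.

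The sets differed more than the genotypes, with a median absolute difference of 0.29 between sets and 0.11 between genotypes over the 14 probe sets (GCRMA), and the sign of the set difference split the collagens by type. With GCRMA 9 of the 14 probe sets were higher in set A, all those of Col3a1, Col5a1, Col5a2, Col4a1, Col4a2 and Col8a1. The other 5, all those of Col6a1, Col6a2, Col6a3 and Col7a1, were higher in set B. With dChip the 98331_at probe set of Col3a1 joined the second group, while quantile normalization and centring of the GCRMA chips left the split as it was. For Col3a1 98331_at (0.05) and Col6a3 (-0.04) the set difference was smaller than its SE of 0.11. Of all probe sets 46.8% were higher in set A. Adjusted over the chip, 6 of the 14 set differences passed with limma (4 higher in A and 2 in B), beside 25.8% of all probe sets, and with dChip 2 of the 14, beside 11.7%. Col8a1 differed by 1.04 ± 0.11 between the sets (A minus B, 2.06-fold), with 1.23 in COUP-TFI-/- ears and 0.85 in wild-type ears. Col3a1 161984_f_at differed by 0.93 ± 0.10, while the other Col3a1 probe sets gave 0.43 (102990_at) and 0.05 (98331_at). Col4a1 was higher in set A by 0.41 ± 0.10. Col6a2 was higher in set B, with -0.46 ± 0.10, and Col6a1 95493_at with -0.33 ± 0.10. The sign of the set difference was the same in COUP-TFI-/- and wild-type pools for 12 of the 14 probe sets in each normalization. Each set is 1 pool per genotype, so the time of hybridization and the animals pooled cannot be told apart.

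**Figure D3:**
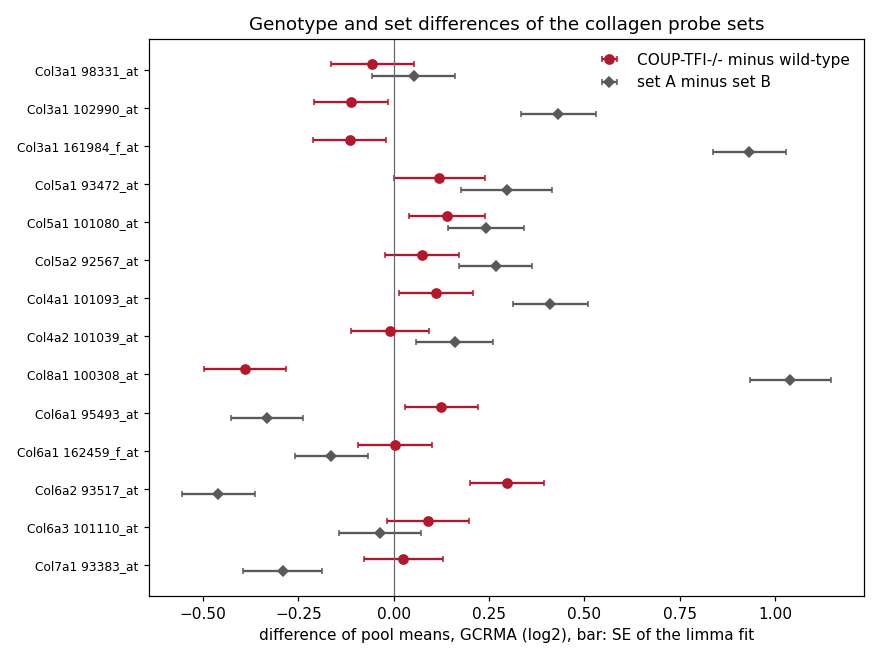
Difference between genotypes (red circles, COUP-TFI-/- minus wild-type) and between sets (grey diamonds, A minus B) of the 14 collagen probe sets, GCRMA log2 on the x axis, with the SE of the limma fit as bars. Col8a1 stands at -0.39 for genotype and 1.04 for set. The set differences of types III, IV, V and VIII lie right of 0 and those of types VI and VII left of it.

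Genes that act with these collagens were counted by list. Of 30 probe sets of 21 other collagen genes, 16 were higher and 14 lower in COUP-TFI-/- ears with GCRMA, with a median of 0.00. At an unadjusted p under 0.05, 1 was higher, a probe set of Col1a1 (103709_at), the main chain of type I collagen. Its difference was 0.38 ± 0.15 (SE, limma adjusted p = 0.917), with -0.07 (A) and 0.84 (B), and the other Col1a1 probe set (94305_at) gave 0.31 and -0.005. Among 22 probe sets for the folding, modification and cross-linking of collagen, 10 were higher and 12 lower, and 0 passed the unadjusted limma p of 0.05. The lowest p was that of a probe set of P4hb (93108_at), a subunit of the prolyl hydroxylase, at -0.17 ± 0.10 (limma adjusted p = 1 after rounding). The other P4hb probe set (161926_r_at) gave 0.05. Among 23 probe sets of basement membrane partners, 16 were higher and 7 lower. Npnt, nephronectin, an integrin ligand of basement membranes, was higher by 0.22 ± 0.10 (limma adjusted p = 0.999). The other partner that passed an unadjusted p of 0.05, named after its values were seen, was Nid2, a nidogen that links laminin to type IV collagen, at -0.22.

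Of 34 probe sets for the matrix around collagen fibrils 21 were higher and 13 lower, and 5 passed an unadjusted p of 0.05, all higher in COUP-TFI-/- ears. Eln, elastin, was higher by 0.42 ± 0.10 in 1 probe set (92207_at), with 0.42 in both sets (limma adjusted p = 0.222). With dChip this probe set was higher by 0.26, with 0.17 in A and 0.35 in B, and 0 of the 34 passed. The other Eln probe set (92836_at) gave 0.18 with GCRMA, with 0.10 in A and 0.25 in B, and 0.19 with dChip. The other 4 that passed with GCRMA, named after their values were seen, were 2 probe sets of Tnxb, a tenascin (0.21 and 0.24), the fibrillin Fbn2 (0.22) and the microfibril protein Mfap5 (99518_at, 0.28). This Mfap5 probe set gave 0.009 in A and 0.56 in B, and the other (99517_at) gave -0.04 pooled. Of 8 probe sets of collagen receptors 4 were higher and 4 lower, and 0 passed. Ddr2, a receptor kinase for fibrillar collagen, gave -0.15 ± 0.10 (limma adjusted p = 1 after rounding). Of 17 probe sets for collagen breakdown 1 passed higher and 2 lower, among them a probe set of Timp1, an inhibitor of matrix proteases. This probe set (162107_r_at) gave -0.29 in both sets with GCRMA (limma adjusted p = 0.713), but 0.006 (A) and -1.26 (B) with dChip, and the other Timp1 probe set (101464_at) gave -0.02 with GCRMA. The others, named after their values were seen, were the protease Fap (0.22) and a probe set of the inhibitor Timp2 (161515_i_at, -0.42), with -0.001 (A) and -0.84 (B). The other Timp2 probe sets gave 0.05 (160116_at) and -0.14 (93507_at). Of 20 probe sets of TGF-beta signalling, a pathway that raises collagen genes in fibroblasts, 1 passed. It was Ccn2, connective tissue growth factor, at 0.40 ± 0.11, with 0.59 in A and 0.21 in B (limma adjusted p = 0.427). In these 7 lists 0 probe sets passed an adjusted p of 0.05 in either normalization with limma.

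Whole inner ears hold many cell types, and fewer cells of a type cannot be told apart from less RNA per cell. Tissue carried over at dissection cannot be told apart from either. The study left out genes with an interaction because in theory they include such contamination, and it reports striated muscle classes as overrepresented among them. All 9 fibroblast and mesenchyme genes of the marker list were on the chip. Their 11 probe sets had medians of 0.07 (A) and -0.02 (B) with GCRMA, and 1 of the 11 passed an unadjusted p of 0.05 (Pdgfrb, 0.22). Their summed dChip signal ran from 13828 to 15984 on COUP-TFI-/- chips and from 13905 to 14976 on wild-type chips. By set it averaged 15838 on COUP-TFI-/- chips against 14923 on wild-type chips (A), and 14284 against 13957 (B). For 13 probe sets of endothelium and mural cells, of which 0 passed with limma, the medians were 0.04 and 0.03. The sums were 6465 to 7126 on COUP-TFI-/- chips and 5695 to 6944 on wild-type chips. By set they averaged 6958 on COUP-TFI-/- chips against 6847 on wild-type chips (A), and 6519 against 5780 (B). The lowest p was that of Rgs5 103294_at (-0.21), while the other Rgs5 probe set (96180_at) gave 0.007. Striated muscle markers had a larger median in set B. With GCRMA the 14 probe sets had medians of -0.03 (A) and 0.82 (B), and 8 passed an unadjusted p of 0.05, all higher in COUP-TFI-/- ears. Of these 2 passed the adjusted p, Myh8 (0.98 ± 0.14, adjusted p = 0.00916) and Myh3 (0.80 ± 0.12, adjusted p = 0.014), myosin heavy chains of developing muscle, and Tnnt3, a troponin, gave 0.62 ± 0.18 (adjusted p = 0.600). Myh8 (0.56 in A and 1.41 in B, 160243_r_at) and Myh3 (0.49 and 1.11) were higher in both sets, while Tnnt3 gave 0.006 and 1.23. The other Myh8 probe set (162374_r_at) gave -0.01 pooled with GCRMA. With dChip 2 of the 14 muscle probe sets passed the unadjusted limma p of 0.05, both higher, and 0 passed the adjusted p. The muscle sum averaged 26914 on COUP-TFI-/- chips of set B, against 15260 on wild-type chips, and 22551 on COUP-TFI-/- chips of set A, against 23895 on wild-type chips. Col6a2, Col4a1 and Col1a1 103709_at were further above wild-type in set B, where muscle markers were higher, than in set A. Most members were not: 5 of the 14 collagen probe sets were above wild-type in set B, with a median of -0.12 (GCRMA). The part of muscle in these differences was not tested.

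Most fat markers were lower in COUP-TFI-/- ears in both sets, with GCRMA medians of -0.26 in A and -0.33 in B over 7 probe sets. Of these 5 passed an unadjusted p of 0.05 lower and 1 higher with GCRMA. The exceptions were both probe sets of Lpl, lipoprotein lipase, named after their values were seen, with 0.28 and 0.29 for 160083_at and 0.02 and 0.28 for 95611_at (A, then B). With GCRMA, Ucp1, the uncoupling protein of brown fat, fell by 1.26 ± 0.13 in 1 probe set (99507_at, limma adjusted p = 0.000258) and by 0.59 in another (161422_f_at, limma adjusted p = 0.0208). Their dChip differences were -0.95 and -1.43. The study also measured its top hits by a separate transcript assay, real-time RT-PCR, in ears that were not pooled. The Ucp1 change did not reach statistical significance there. Cidea and Adipoq, other genes of fat cells, gave -0.32 and -0.29 with GCRMA, and -0.25 and -0.05 with dChip. With dChip 2 of the 7 fat probe sets passed the unadjusted limma p of 0.05, both lower, and 0 passed the adjusted p. The fat sum ran from 2054 to 2526 on COUP-TFI-/- chips and from 2340 to 3064 on wild-type chips. By set it averaged 2477 on COUP-TFI-/- chips against 3006 on wild-type chips (A), and 2118 against 2409 (B). Col8a1 was lower in both sets as well, by -0.20 (A) and -0.58 (B) with GCRMA. The inner ear list below also had negative medians in both sets, and no link of Col8a1 with either list was tested. The 15 inner ear probe sets, which cover 10 of 12 listed genes, had medians of -0.05 and -0.09. Their sums were 10731 to 13106 on COUP-TFI-/- chips and 11260 to 13946 on wild-type chips. By set these sums averaged 12947 on COUP-TFI-/- chips against 13902 on wild-type chips (A), and 10740 against 11389 (B). Tectb, a tectorin, gave -0.48 with GCRMA and -0.50 with dChip. Gjb6, a connexin, gave -0.33 with GCRMA but 0.04 with dChip in probe set 94391_at, and its other probe sets gave -0.07 (102571_at) and 0.04 (161607_r_at) with GCRMA. Between the sets, 8 of these 15 were higher in A at a limma adjusted p under 0.05 with GCRMA. Of 6 cartilage probe sets 5 were higher in B at that threshold. Medians for bone (5 probe sets) were 0.09 and 0.11, for cartilage 0.14 and -0.04, for blood (4) -0.02 and 0.01 and for Schwann cells and nerve (8) 0.02 and 0.09. The lowest p in each was that of Ibsp (0.19), Acan (0.21), Alas2 (0.06) and Nefl (-0.17), in the same order. The other Ibsp probe set (97572_at) gave 0.007. In none of these marker lists was a dChip value below 1, the floor used here.

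**Figure D4:**
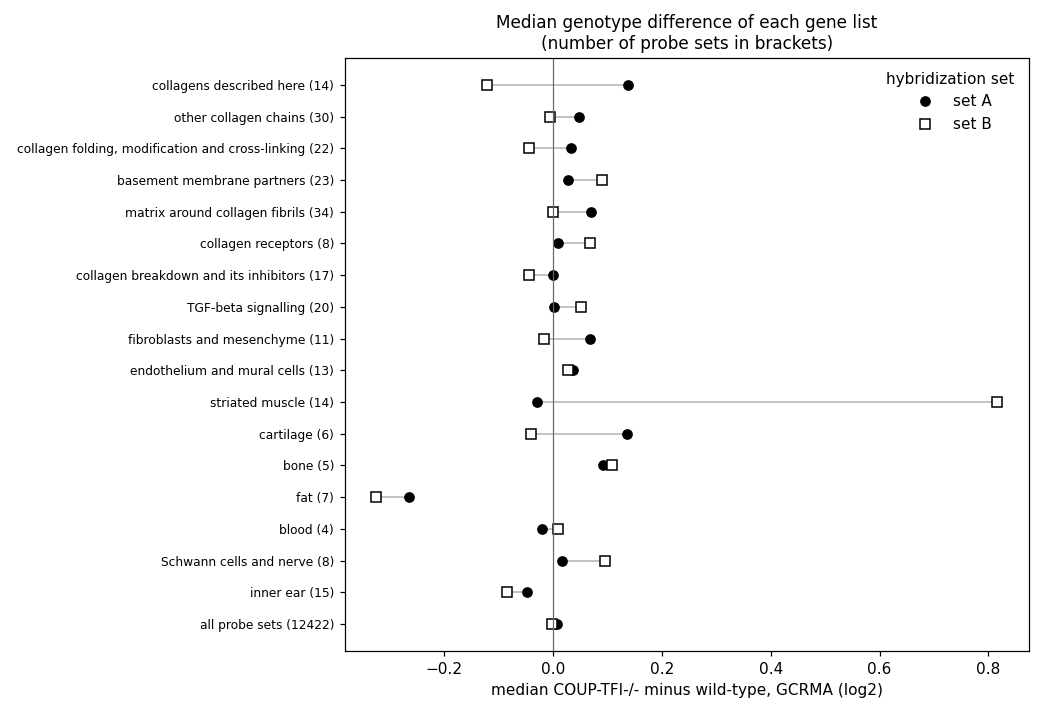
Median COUP-TFI-/- minus wild-type difference (GCRMA log2, x axis) of each gene list in set A (filled circles) and set B (open squares), with the number of probe sets in brackets. The 14 collagen probe sets stand at 0.14 and -0.12, striated muscle at -0.03 and 0.82 and fat at -0.26 and -0.33.

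The probe sets whose pattern over the 4 pool means lay nearest to that of Col8a1 were sought among all those with 1 symbol, by the root mean square distance of the centred GCRMA values. The nearest 5 were Srsf1 (160141_r_at), Zdhhc5 (96018_r_at), Cadps (92988_i_at), Stmn2 (95670_at) and Matr3 (96013_r_at), at distances of 0.07, 0.09, 0.10, 0.11 and 0.11. All were higher in set A, by 0.82 to 1.17, and lower in COUP-TFI-/- ears of set B, by -0.55 to -0.36. These probe sets were chosen for their distance to Col8a1, so the shared directions follow from the choice. In set A their genotype differences lay between -0.24 and -0.01. None is a collagen, and the likeness rests on 4 points per probe set.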

How the data were processed

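RNA pools of newborn inner ears were hybridized to 8 chips. The authors deposited GCRMA values on the log2 scale, background-corrected and summarized per probe set, and dChip signal values on a linear scale. Software versions are not given in the sources used here. No probe intensities were used. The table holds 12488 probe sets. Without 66 controls, 12422 were tested for GCRMA and 12421 for dChip. Of these 10833 have 1 gene symbol, 396 several and 1193 none. A floor of 1 replaced 89 lower dChip values before log2 was taken. The letter of a chip was read as its set.

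Means of duplicate chips were fitted in R 4.3.3 with limma 3.58.1 (lmFit, eBayes), with genotype and set as terms, and 2-sided p-values were adjusted by Benjamini-Hochberg over the chip. Residual degrees of freedom were 1, to which limma's prior added 14.3 (GCRMA) or 4.55 (dChip). A random block on 8 chips used statmod. Sets pair the pools by the methods, and the set difference in COUP-TFI-/- pools correlated with that in wild-type pools across probe sets (r = 0.75 and 0.69). The number of pools limits the precision. The genotype fit was tested on simulated data. The members and lists were chosen with earlier results of these data known. All 14 member probe sets are named, and from each list up to 3 genes below an unadjusted p of 0.01, else the lowest. Promoter windows are the 250 bases before the RefSeq start sites (GRCm38.p6).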

Additional observations from a re-analysis of the deposited data

Results flagged for a closer look

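In 4 probe sets both COUP-TFI-/- chips lay on 1 side of both wild-type chips in set A and on the other side in set B with GCRMA, and in 1 with dChip. The difference in set A minus that in set B was 0.57 for Col5a1 93472_at, 0.41 for Col3a1 98331_at, 0.32 for Col7a1 and 0.29 for Col4a2 with GCRMA, and 0.33 for Col5a1 101080_at with dChip. Over the 8 chips with limma, the adjusted p of these interactions was 0.0772, 0.184, 0.183, 0.238 and 0.119 in this order, so none passed.

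In 2 of 56 groups of 4 chips, 1 chip lay far from the other 3. A rate of about 1 in 20 would hold for independent chips, but each group holds duplicate chips of 2 pools. The count can therefore not be read against that rate. Col5a1 101080_at with dChip had 10.18 (log2) on wild-type chip A2, against 10.23 on the other 3, a gap of 0.974 of the range, and the distance itself was small. Col6a3 with dChip had 10.89 on COUP-TFI-/- chip B1, against 11.05 to 11.08, a gap of 0.84 of the range.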

How the results depend on the processing

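Across 196 refits of single probe sets, 10 changed the sign of a genotype difference, in Col4a2, Col6a1 162459_f_at and Col3a1 98331_at, and in none did a probe set pass an adjusted p of 0.05. Col8a1 stayed between -0.41 and -0.30 and Col6a2 between 0.21 and 0.36. Of the members, 2 passed an unadjusted p of 0.05 with GCRMA, 3 with the RNA pool as a random block, 1 with dChip, and 0 without the set as a replicate block. The random block on the GCRMA chips had an estimated correlation of 0.0072 within pools. That fit therefore counted duplicate chips almost as independent replicates. With dChip the count of 1 became 0 without the replicate block and 0 to 1 when single chips were left out. The lowest adjusted p, that of Col8a1, was 0.0637 over these refits.

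The hit list thresholds were met by 2 probe sets with GCRMA whenever 1 chip was left out, against 1 with all chips: Col6a2 each time, with Col8a1, or with Col3a1 102990_at without COUP-TFI-/- chip B2. With dChip it was 0 to 2 with 1 chip left out and 0 with the methods' 2-way analysis of variance. Interaction p-values under 0.01 were reached by 1 to 4 probe sets with 1 chip left out (GCRMA). The cause was not tested. Adjusted set differences were passed by 5 to 9. Medians over the 14 probe sets stayed positive under every setting, at 0.03 to 0.08 with GCRMA and 0.04 to 0.10 with dChip. The small number of pools limits all tests.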
